A study of Mus musculus with 18 samples.

Results

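The G2/M and mitosis genes are 50 listed mouse genes that act between the end of DNA replication and cell division. Each was found by its symbol in the annotation of the array and read by its probe set with the highest mean log2 signal over all 18 arrays. All 50 were among the 18194 genes read. All 50 were also among the 10916 genes tested, the upper 60% by mean signal, so the filter on dim genes removed none of them. The genes are described across the 6 groups of the study and by replicate number, replicate 3 against replicates 1 and 2 within each cell type. That split by number was named from earlier results of these data.

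Total RNA of the mouse cell line TKO, which the labels call telomere dysfunctional, was measured on 18 Affymetrix arrays in 6 groups of 3. The p53ER cells expressed p53 fused to an estrogen receptor, an inducible allele that works once 4-hydroxytamoxifen (4-OHT) is added. They were sampled after 4 h with 100 nM 4-OHT, after 4 h with vehicle and at 0 h, and uninfected TKO cells were sampled in the same 3 ways. The study chose 4 h to list potential direct targets of p53. The labels name no tissue or cell type for TKO, and no cells that were infected without the fusion, so infection and fusion cannot be told apart. Nothing in the labels tells if the replicates came from separate cultures, or what a replicate number means. The p-values therefore cover only the spread among these arrays, possibly a technical one, and precision is limited by how few arrays there are. Tests by replicate number count arrays of the same number as separate units. Their p-values are too small if such arrays share a culture or batch.

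Entry into mitosis is driven by CDK1 bound to A- and B-type cyclins, and exit by the anaphase-promoting complex, a ubiquitin ligase that marks cyclins and securin for destruction. Transcription of these genes is known to peak in G2 through CHR elements and CCAAT boxes in their promoters, bound by MuvB complexes with B-MYB and FOXM1 and by NF-Y. In cells with active p53, the CDK inhibitor p21 (gene Cdkn1a) is known to lower the same genes through the DREAM complex, a MuvB complex with p107 or p130 and E2F4.

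The genes were well expressed in TKO cells. Mean log2 signal over the 18 arrays ran from 6.18 for Cdc25c to 11.05 for Cdk1, with a median of 7.83, and 42 of 50 lay above the median of the genes tested. Cdk1, the kinase that triggers mitosis, ranked 239 of 10916. Next in mean log2 signal came Ube2s at 10.71, Cdc20 at 10.02 and Birc5 at 10.01. The lowest besides Cdc25c were Ndc80 at 6.26 and the checkpoint kinase gene Ttk at 6.27. Signals of different probe sets are not on 1 scale, so this order describes the probe sets and not the amounts of RNA.

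Many of the 50 promoters held the motifs named above. RefSeq promoters of build GRCm38.p6, reaching from 250 bases before to 50 bases after the transcript start, were matched for 41 of the 50 genes. A CHR element (TTTGAA or TTCGAA, both strands) stood in 30 of 41, or 73.2%, against 16.2% of the 8874 tested genes with a promoter and 21.7% of all 27025 genes in the promoter table. A CCAAT box (CCAAT, both strands) also stood in 30 of 41, or 73.2%, against 42.8% of the tested genes and 41.1% of all genes. Both motifs stood in 26 of 41, or 63.4%, against 6.37% of the tested genes and 8.61% of all genes. The E2F type of motif, which marks many G1/S promoters, was searched on both strands as the letters TTTGGCG, as the letters TTTCCCG, as the letters TTTCGCG and as the letters TTTGCCG. It stood in 4 of 41, or 9.76%, against 13.1% of the tested genes and 7.65% of all genes. Of the 40 distinct CHR sites, 27 lay within 50 bases of a start, a site seen from both starts of a gene being counted once. A match is a description of these letters and no evidence that a factor binds there. Shown are the 250 bases before the start, 5′ to 3′ in the direction of transcription, with CHR elements and CCAAT boxes (or their reverse complements) in capitals.
The first 4 promoters are of genes with several matches and different behaviour below: Cdk1 (chr10:69352913-69353162, minus strand), Ccnb2 (chr9:70421555-70421804, minus strand), Cdc20 (chr4:118437344-118437593, minus strand) and Top2a (chr11:99024190-99024439, minus strand).
Cdk1: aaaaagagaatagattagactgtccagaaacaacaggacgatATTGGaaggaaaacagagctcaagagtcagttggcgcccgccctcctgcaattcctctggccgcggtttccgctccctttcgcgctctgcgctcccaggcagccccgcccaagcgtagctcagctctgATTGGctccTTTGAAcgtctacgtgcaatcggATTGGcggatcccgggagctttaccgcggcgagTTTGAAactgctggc
Ccnb2: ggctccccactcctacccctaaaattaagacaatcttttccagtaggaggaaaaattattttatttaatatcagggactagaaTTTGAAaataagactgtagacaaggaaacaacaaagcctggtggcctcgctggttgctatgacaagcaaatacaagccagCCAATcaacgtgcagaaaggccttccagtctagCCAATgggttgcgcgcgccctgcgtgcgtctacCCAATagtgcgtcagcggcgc
Cdc20: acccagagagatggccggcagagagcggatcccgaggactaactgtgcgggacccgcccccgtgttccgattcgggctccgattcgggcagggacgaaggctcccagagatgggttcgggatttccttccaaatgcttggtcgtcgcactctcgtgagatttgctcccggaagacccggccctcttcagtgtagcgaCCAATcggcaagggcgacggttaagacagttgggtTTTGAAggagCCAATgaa
Top2a: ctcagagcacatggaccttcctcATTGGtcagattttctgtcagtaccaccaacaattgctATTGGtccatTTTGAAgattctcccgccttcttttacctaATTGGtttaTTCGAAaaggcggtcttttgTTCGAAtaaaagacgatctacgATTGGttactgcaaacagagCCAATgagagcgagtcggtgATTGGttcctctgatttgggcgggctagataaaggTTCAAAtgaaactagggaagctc
The other 2 were chosen after their values were seen, because they were the 2 of the 50 with an unadjusted p under 0.05 for 4-OHT against vehicle in p53ER cells: Ckap2 (chr8:22185820-22186069, minus strand) and the first listed start of Gtse1 (chr15:85859457-85859706, plus strand).
Ckap2: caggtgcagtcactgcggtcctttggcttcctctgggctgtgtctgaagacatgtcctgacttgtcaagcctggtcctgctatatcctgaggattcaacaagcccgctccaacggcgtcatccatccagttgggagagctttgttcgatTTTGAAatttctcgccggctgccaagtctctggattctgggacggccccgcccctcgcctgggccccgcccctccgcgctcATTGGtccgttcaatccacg
Gtse1: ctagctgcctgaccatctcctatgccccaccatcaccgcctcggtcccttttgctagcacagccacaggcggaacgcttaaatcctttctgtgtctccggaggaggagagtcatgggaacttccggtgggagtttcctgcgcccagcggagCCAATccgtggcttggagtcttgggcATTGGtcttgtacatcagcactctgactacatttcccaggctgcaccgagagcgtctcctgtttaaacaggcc
In these windows Cdk1 held 2 CHR elements and 3 CCAAT boxes, Ccnb2 held 1 and 3, Cdc20 held 1 and 2, Top2a held 4 and 6, and Ckap2 held 1 and 1. Gtse1 held no CHR element and 2 CCAAT boxes.

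**Figure D1:**
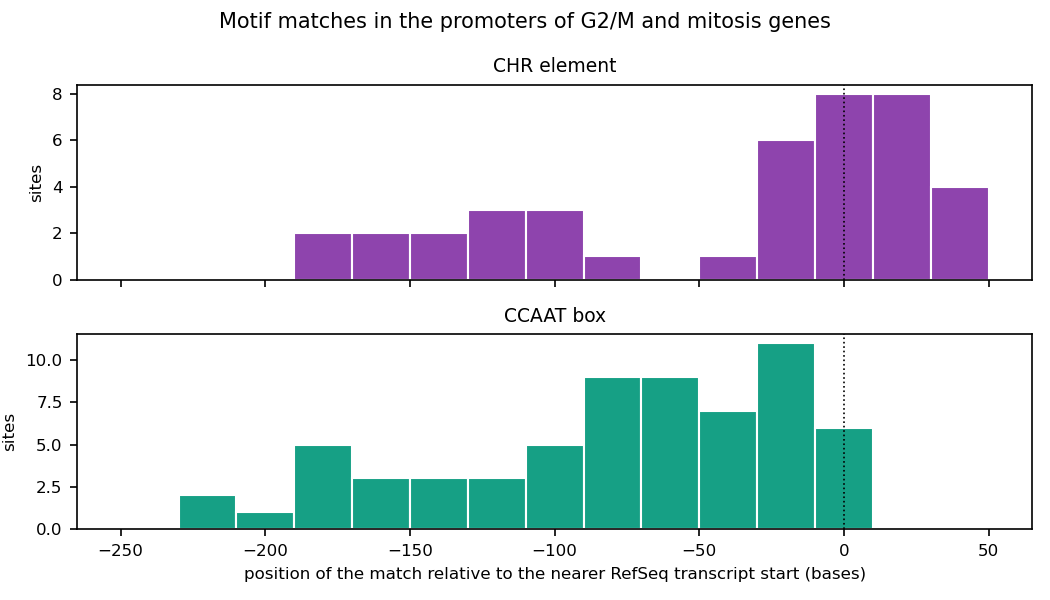
Positions of CHR elements (top) and CCAAT boxes (bottom) in the promoters of the 41 matched genes; the x axis is the distance in bases of a site from the nearer RefSeq transcript start, the y axis the number of distinct sites, and the dotted line the start. CHR sites gather around the start, with 27 of 40 within 50 bases of it, while 62 of 64 CCAAT boxes lie before it.

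A few arrays stood apart from the others of their group, and this touches some of the genes. On the first principal component of all genes tested (23.9% of the variance) the arrays p53ER vehicle replicate 1, p53ER 0 h replicate 3 and uninfected 0 h replicate 2 lay farthest out. Mki67, which codes for the Ki-67 protein that coats mitotic chromosomes, differed by -3.56, -2.20 and -3.15 in log2 signal on these 3 arrays from the mean of the other 2 arrays of the group. Smc2, a core subunit of condensin, differed by -3.28, -2.08 and -2.95, and its partner Smc4 by -2.86, -2.20 and -3.11. Such low values were not shared by all 50 genes. Plk1 differed by +1.24, -1.01 and +1.04, Kif20a by +1.5, -0.93 and +0.76, and Cdc20 by +1.37, -1.0 and +0.68. Of the 50 genes, 12, 27 and 13 lay more than 1 log2 unit below their group on the 3 arrays, against 9.31%, 7.04% and 9.05% of the genes tested. The median of the 50 was +0.40, -1.01 and +0.23. Results are given below with and without these 3 arrays where they change.

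**Figure D2:**
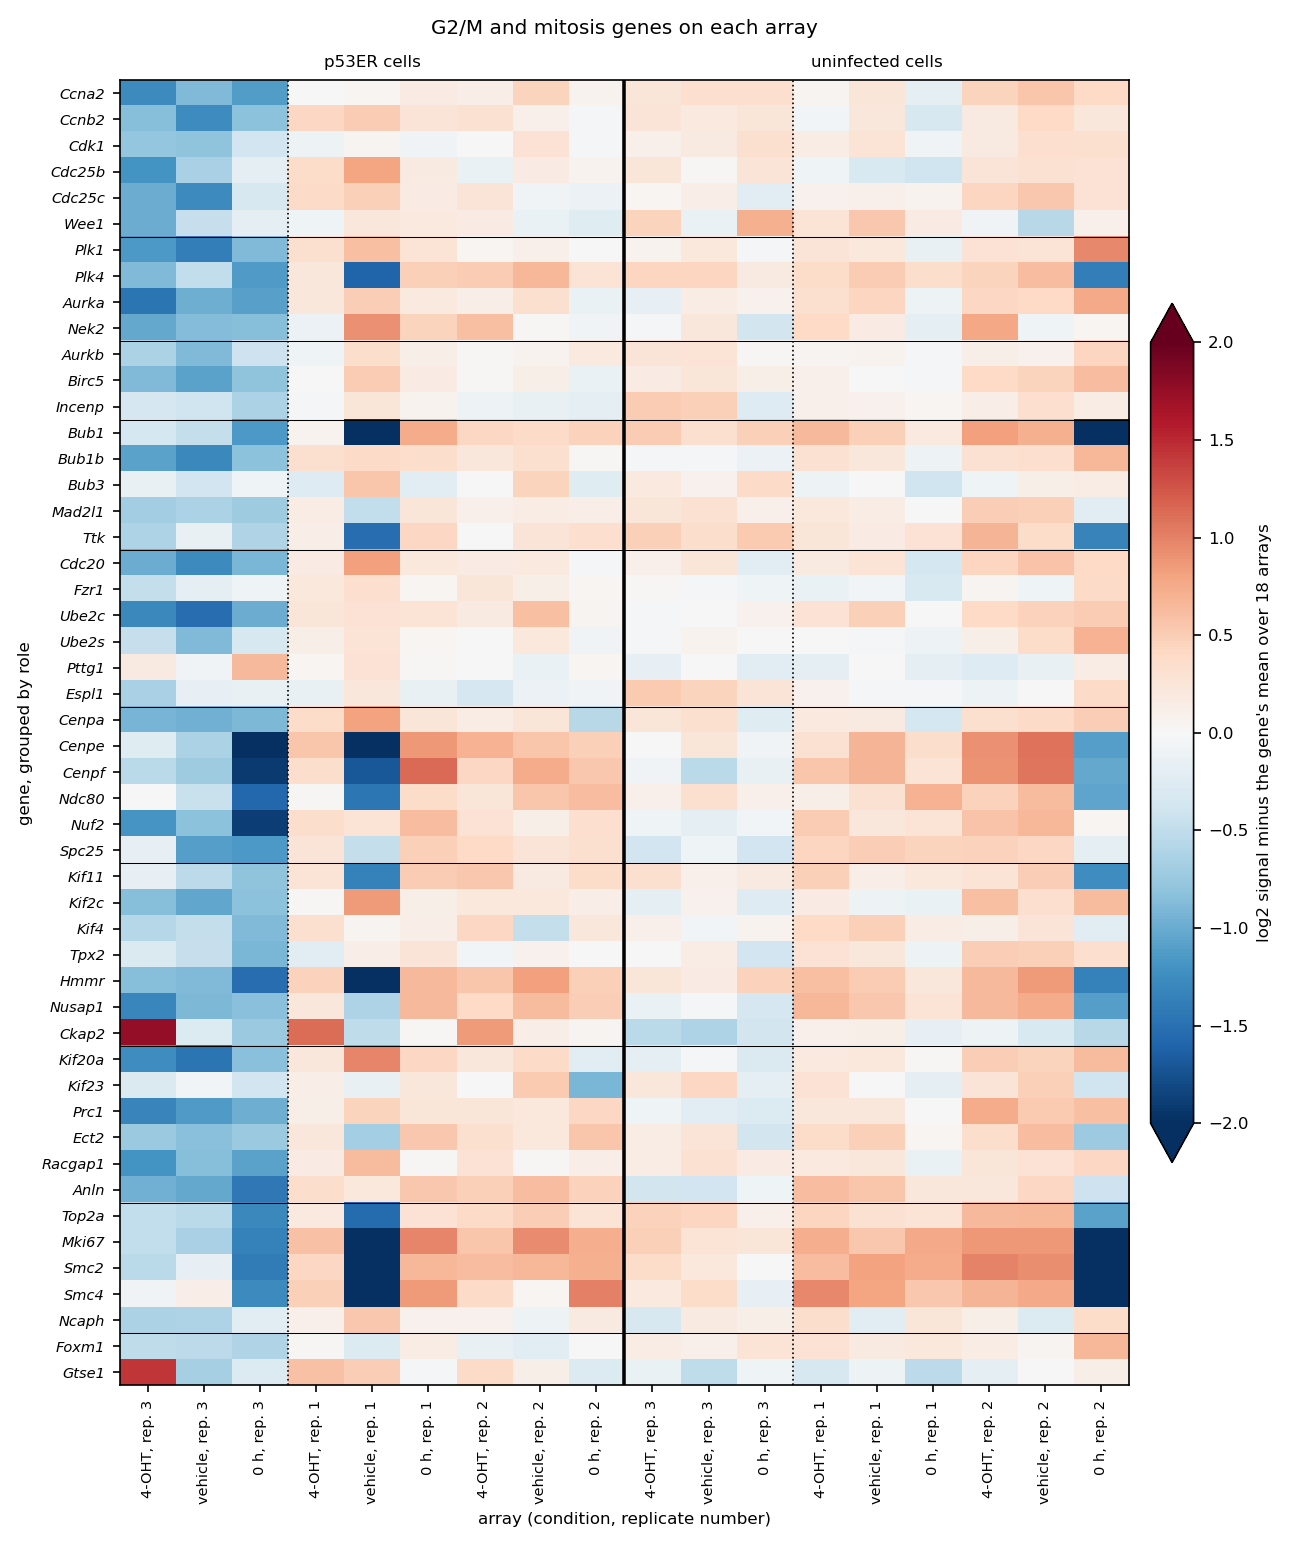
Log2 signal of each of the 50 genes (rows, grouped by role) on each array (columns), minus the gene's mean over the 18 arrays; blue is lower and red higher, with the colour scale ending at 2 log2 units either way. The 3 p53ER arrays of replicate 3, at the left, are blue for most genes, while Ckap2 and Gtse1 are red on p53ER arrays with 4-OHT. Chromosome structure genes are also blue on p53ER vehicle replicate 1 and uninfected 0 h replicate 2.

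In p53ER cells, most G2/M and mitosis genes were lower on the arrays of replicate 3 than on those of replicates 1 and 2, whatever the treatment. With limma over all genes tested (adjusted p under 0.05, Benjamini-Hochberg), 29 of 50 were called and all 29 were lower. Of all genes tested 12.1% were called, 6.42% lower and 5.72% higher. The median log2 change of the 50 was -0.90, against -0.00 over all genes tested, and 49 of 50 were negative. In 29 of the 50 all 3 arrays of replicate 3 lay below all 6 others, against 7.43% of the genes tested. The median was -0.93 within the 4-OHT group, -0.85 within the vehicle group and -1.01 within the 0 h group, and 39 of 50 were lower in all 3 groups. RNA was taken from whole cultures, so fewer cells in G2 and mitosis and less RNA per cell cannot be told apart.

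Cyclins and the switches of CDK1 were called lower in 5 of 6 cases. Ccna2, cyclin A2, had log2 signals of 8.56, 8.94 and 8.72 in replicate 3 (4-OHT, vehicle and 0 h), against a lowest of 9.83, a median of 9.93 and a highest of 10.27 over the 6 arrays of replicates 1 and 2. Ccnb2, cyclin B2, had 7.32, 6.92 and 7.36 in replicate 3, against 8.16, 8.46 and 8.68 (lowest, median and highest) in replicates 1 and 2. Neither gene's groups overlapped, and the log2 changes were -1.23 for Ccna2 (SE 0.14, adjusted p = 5.0e-05, limma) and -1.24 for Ccnb2 (SE 0.16, adjusted p = 8.3e-05). Cdk1 had 10.28, 10.25 and 10.67 in replicate 3, against 10.94, 11.05 and 11.34 in replicates 1 and 2. It thus fell less, 1.60-fold (log2 change -0.68, SE 0.13, adjusted p = 0.00208), again with no overlap. The phosphatase genes Cdc25c and Cdc25b, whose products activate CDK1, fell by 1.04 and 0.91 on the log2 scale. Wee1, the kinase that holds CDK1 inactive, had 5.57, 6.11 and 6.39 in replicate 3, against 6.32, 6.61 and 6.79 in replicates 1 and 2, and its change of -0.56 did not pass (SE 0.23, adjusted p = 0.137).

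Kinases of the centrosome and spindle were among the genes with the largest falls, 3 of 4 being called. Plk1, the polo-like kinase needed for mitotic entry and spindle assembly, had 7.24, 7.0 and 7.51 in replicate 3, against 8.38, 8.58 and 8.99 in replicates 1 and 2. Aurka, Aurora A, had 7.29, 7.78 and 7.68, against 8.63, 8.97 and 9.25. The arrays of replicate 3 were below all others for both, and the log2 changes were -1.36 (SE 0.20, adjusted p = 0.000414) and -1.38 (SE 0.16, adjusted p = 5.0e-05). Nek2, which separates centrosomes, fell by 1.21, whereas Plk4, which duplicates centrioles, was at -0.93 without passing. In the chromosomal passenger complex, Aurkb, the Aurora B kinase, had 7.16, 6.91 and 7.38 in replicate 3, against 7.72, 7.89 and 8.14, a change of -0.76 (SE 0.14, adjusted p = 0.00188). Birc5, survivin, fell by 1.03, while Incenp, the scaffold, was at -0.43 with an adjusted p of 0.0558, although its groups did not overlap.

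Genes of the spindle checkpoint, which delays anaphase until kinetochores are attached, were called in 2 of 5 cases. Bub1b, which codes for BubR1, had 6.76, 6.54 and 7.01 in replicate 3, against 7.86, 8.16 and 8.22 in replicates 1 and 2, with no overlap and a log2 change of -1.34 (SE 0.16, adjusted p = 5.1e-05). Mad2l1 fell by 0.73. Bub1, Ttk and Bub3 had changes of -0.64, -0.39 and -0.25 and did not pass.

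The anaphase-promoting complex works with activators and ubiquitin-conjugating enzymes, and these differed from each other. Ube2c, the enzyme that starts ubiquitin chains for the complex, had 8.32, 8.09 and 8.63 in replicate 3, against 9.67, 9.87 and 10.21 in replicates 1 and 2, a fall of 2.90-fold (log2 change -1.54, SE 0.15, adjusted p = 1.0e-05). Cdc20, the activator in mitosis, had 9.02, 8.74 and 9.10, against 9.98, 10.20 and 10.84, a log2 change of -1.32 (SE 0.18, adjusted p = 0.00019). For both, no array of replicate 3 reached the lowest of the others. Fzr1 codes for CDH1, the activator after mitosis. It had 7.12, 7.39 and 7.50, against 7.63, 7.76 and 7.94, without overlap, and its change of -0.42 did not pass (SE 0.15, adjusted p = 0.0759). Ube2s, which extends the chains, fell by 0.65, and Espl1, separase, was at -0.22. Pttg1, securin, was the only one of the 50 with a positive change (+0.21, SE 0.14, adjusted p = 0.385). It had 9.45, 9.20 and 9.93 in replicate 3, against 9.13, 9.30 and 9.56, and the groups overlapped.

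At the kinetochore, the 3 genes called out of 6 were Nuf2, Spc25 and Cenpa. Nuf2, a subunit of the Ndc80 complex that holds microtubules, had the largest fall of the 50, with 6.43, 6.78 and 5.72 in replicate 3, against 7.73, 7.92 and 8.22 in replicates 1 and 2. That is 3.09-fold (log2 change -1.63, SE 0.19, adjusted p = 5.3e-05), with no overlap. Spc25, of the same complex, fell by 1.01, and Cenpa, the histone H3 variant of centromeres, by 1.14. Cenpf, Cenpe and Ndc80 had changes of -1.30, -1.11 and -0.73, but their standard errors (0.57 for Cenpf and 0.67 for Cenpe) left them short of the threshold. For Cenpe, a kinesin that moves chromosomes to the spindle equator, replicate 3 had 6.59, 6.20 and 4.69, against 4.30, 7.39 and 7.71. Its lowest array of all was p53ER vehicle replicate 1, so the groups overlapped.

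Of the spindle motors and microtubule proteins, 4 of 7 were called, namely Nusap1 (-1.31), Kif2c (-1.16), Kif4 (-0.75) and Tpx2 (-0.59). Kif2c is a kinesin that shortens microtubules, and TPX2 activates Aurora A. Hmmr (-1.23) and Kif11 (-0.59) did not pass. Ckap2, a microtubule-associated protein of the spindle, stood out from the list with 10.03, 7.99 and 7.53 in replicate 3, against 7.76, 8.36 and 9.39, and a change of -0.03 (SE 0.23, adjusted p = 0.962). Its highest value was on the 4-OHT array.

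Cytokinesis genes were called in 5 of 6 cases. Anln, the anillin that links actin, septins and RhoA at the cleavage furrow, had 7.70, 7.63 and 7.22 in replicate 3, against 8.86, 9.12 and 9.27 (log2 change -1.58, SE 0.18, adjusted p = 5.0e-05). Kif20a, a kinesin of the central spindle, had 6.45, 6.24 and 6.86, against 7.48, 8.0 and 8.66 (-1.51, SE 0.21, adjusted p = 0.000224). Prc1, which bundles antiparallel microtubules there, had 7.68, 7.87 and 8.03, against 9.13, 9.25 and 9.44 (-1.42, SE 0.14, adjusted p = 1.5e-05). None of these groups overlapped. Racgap1, the GTPase-activating subunit of centralspindlin, had 7.44, 7.79 and 7.56, against 8.67, 8.79 and 9.27 (-1.25, SE 0.14, adjusted p = 3.2e-05), whereas its kinesin partner Kif23 was at -0.21. Ect2, the RhoA exchange factor that centralspindlin recruits, fell by 0.97.

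Chromosome structure genes were called in 1 of 5 cases, the condensin subunit gene Ncaph (-0.63, adjusted p = 0.0249). Top2a, the topoisomerase that untangles sister chromatids, had 9.09, 9.06 and 8.30 in replicate 3, against 8.05, 9.87 and 10.08 in replicates 1 and 2 (-0.79, SE 0.42, adjusted p = 0.279). Mki67 had 8.17, 8.02 and 7.33, against 5.26, 9.33 and 9.64 (-0.90, SE 0.92, adjusted p = 0.611). For both, the overlap came from p53ER vehicle replicate 1, the lowest of the 9 arrays for each. Foxm1, a transcription factor of G2 genes, had 7.78, 7.75 and 7.68, against 8.0, 8.21 and 8.43, and fell by 0.46 (SE 0.12, adjusted p = 0.0201) with no overlap. Gtse1, which in the mouse is known as a p53-inducible gene, had 8.70, 6.61 and 7.0, against 7.01, 7.52 and 7.85, and a change of -0.05 (SE 0.26, adjusted p = 0.947).

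**Figure D3:**
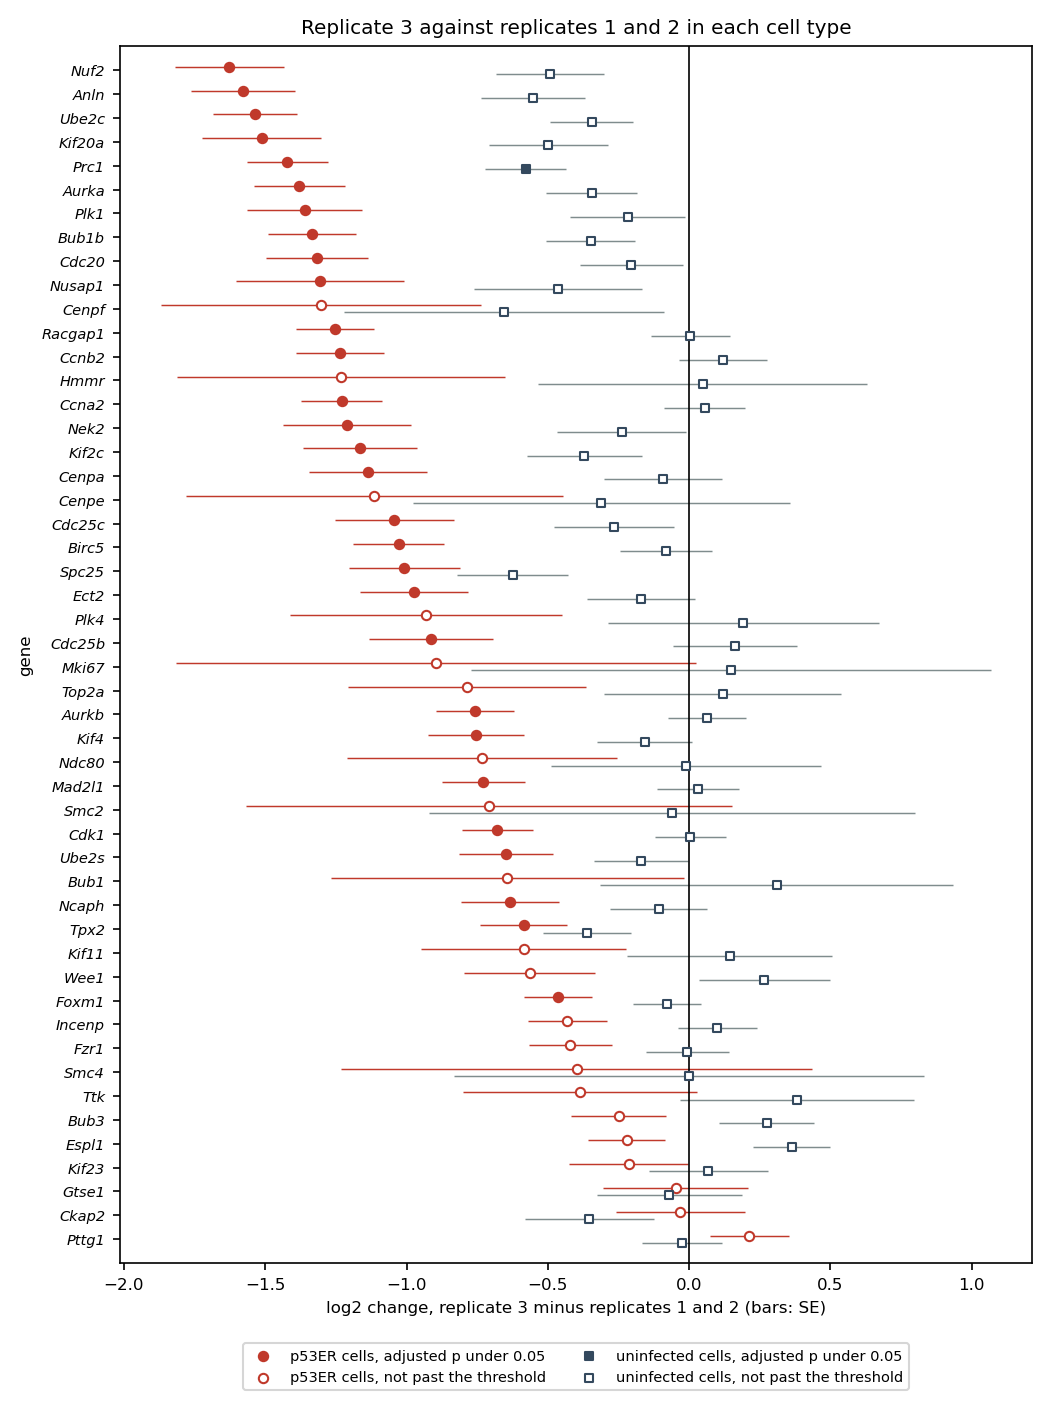
Log2 change of replicate 3 against replicates 1 and 2 (x axis, bars are standard errors) for each of the 50 genes (y axis), in p53ER cells (circles) and uninfected cells (squares); filled symbols passed an adjusted p of 0.05. In p53ER cells 29 genes passed and only Pttg1 lies above 0, while in uninfected cells the symbols lie around 0 and only Prc1 passed.

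The fall held with other readings of the same arrays. A further 47 probe sets of these genes were tested beside the chosen ones, and 42 of 47 were lower in p53ER replicate 3, with a median log2 change of -0.72 and 15 called. In uninfected replicate 3, 40 of these 47 were lower too, with a median of -0.14 and 2 called. With 1 probe set per gene, 6.42% of all genes tested were called lower in p53ER replicate 3 and 5.77% in uninfected replicate 3. The second probe set of Prc1 gave -1.70, and the other probe sets of Cdc20 gave -1.27 and -1.81. Without the 3 arrays that stood apart, 37 of 50 were called, all lower and 27 of them among the 29, against 13.1% of all genes tested, 7.22% lower. The median was then -0.98. Kif4 and Tpx2 were the pair that no longer passed then (adjusted p = 0.0699 and 0.167). Leaving out 1 array in turn gave 22 to 34 calls, with 22 without 4-OHT replicate 3, 24 without vehicle replicate 3 and 25 without 0 h replicate 3, against 5.97%, 8.20% and 7.58% of all genes tested. Cdc25b, Cdc25c, Foxm1, Kif4, Ncaph, Nusap1, Tpx2 and Ube2s each missed the threshold without at least 1 of the arrays.

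In uninfected cells the same comparison called 1 of 50, Prc1, which was lower, against 10.4% of all genes tested, 5.77% lower, and 10 of 50 had an unadjusted p under 0.05, against 23.8%. Prc1 had log2 signals of 8.92, 8.80 and 8.72 in replicate 3 (4-OHT, vehicle and 0 h), against 9.0, 9.38 and 9.75 (lowest, median and highest) in replicates 1 and 2, so the groups did not overlap (-0.58, SE 0.14, adjusted p = 0.0165). The median change of the 50 was -0.07 and 19 were positive. Kif20a at -0.50 and Nuf2 at -0.49 also had groups that did not overlap, which with Prc1 makes 3 of 50, against 8.57% of the genes tested. The most negative were Cenpf at -0.65 (SE 0.57) and Spc25 at -0.62 (adjusted p = 0.0545), beside Prc1. The other end was held by Ttk at +0.38, Espl1 at +0.36 and Bub1 at +0.31, none of which passed. Within the 4-OHT, vehicle and 0 h groups Ttk was at +0.01, +0.09 and +1.05 and Bub1 at -0.24, -0.27 and +1.44, so both rested on the 0 h group, where replicate 2 stood apart. Espl1 was at +0.53, +0.46 and +0.09. Without the 3 arrays that stood apart 12 of 50 were called, or 24%, against 21.8% of all genes tested. Of these 11 were lower, or 22%, against 10.7%. Prc1 itself did not pass when any 1 of the 3 arrays of uninfected replicate 3 was left out (adjusted p = 0.0835 to 0.0975, change -0.58 each time).

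The difference between the cell types was itself tested. The change of replicate 3 in p53ER cells minus that in uninfected cells passed for 4 of 50, all lower, against 0.311% of all genes tested, 0.128% lower. These were Ccnb2 (-1.36, SE 0.22, adjusted p = 0.0106), Ccna2 (-1.29, SE 0.20, adjusted p = 0.0103), Racgap1 (-1.26, SE 0.20, adjusted p = 0.0103) and Ube2c (-1.19, SE 0.21, adjusted p = 0.0175). In uninfected cells Ccna2 had 10.07, 10.16 and 10.17 (lowest, median and highest) in replicate 3, against 9.64, 10.15 and 10.37 in replicates 1 and 2. Ccnb2 had 8.37, 8.41 and 8.43 there, against 7.85, 8.38 and 8.58. Both sets of uninfected arrays overlapped, unlike those of p53ER cells. Over the 50 the median difference was -0.80, and Ckap2 (+0.32), Pttg1 (+0.24) and Gtse1 (+0.02) were the 3 that were positive. Without the 3 arrays that stood apart the count was 22, all lower, against 1.4% of all genes tested, 0.889% lower. It was 0 without p53ER 4-OHT replicate 3 or uninfected 0 h replicate 3, 2 without uninfected 4-OHT or vehicle replicate 3, and 11 without uninfected 0 h replicate 2, against 0.486% of all genes tested.

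**Figure D4:**
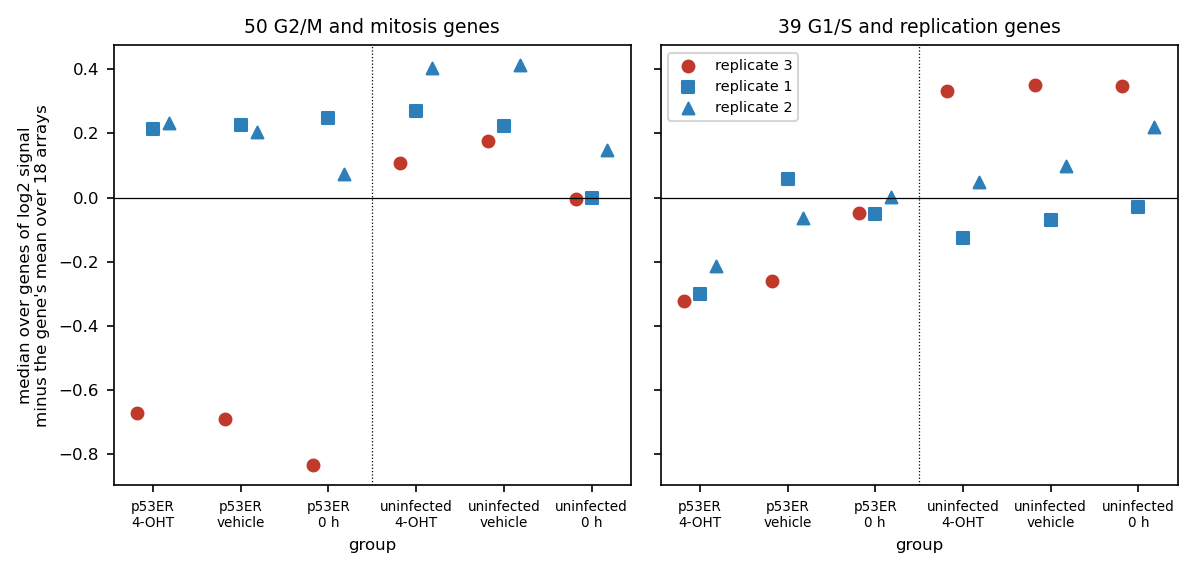
Median over genes of the log2 signal minus each gene's mean over the 18 arrays (y axis), 1 symbol per array, by group (x axis) and replicate number (symbol), for the 50 G2/M and mitosis genes (left) and 39 G1/S and replication genes (right). On the left the 3 p53ER arrays of replicate 3 lie between -0.83 and -0.67, below all 15 others; on the right they lie between -0.32 and -0.05, beside p53ER arrays of the other numbers, while replicate 3 of uninfected cells is highest.

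Taken array by array, the median of the 50 genes, each set against its mean over the 18 arrays, was -0.67 with 4-OHT, -0.69 with vehicle and -0.83 at 0 h in p53ER replicate 3, against -0.00 to +0.41 on the other 15 arrays. The standard deviation of these medians within groups was 0.392, and with replicate 3 as a term in each cell type it was 0.0808. That term was named from these same data, so the smaller spread is a description only. Another 58 mitotic genes that are not among the 50 behaved alike in p53ER replicate 3, with a median of -0.78. Of these, 32 of 58 were called lower, against 6.42% of all genes tested, among them Lmnb1 (-1.68), Fam83d (-1.30) and Iqgap3 (-1.30). Genes of the G1/S transition and replication had a median of -0.19, and 3 of 39 were called lower (Rfc4, Rrm1 and Prim1), near the 6.42% of all genes tested. Subunits of the anaphase-promoting complex itself had a median of +0.04, with 1 of 12 called (Cdc23, -0.69). Subunits of DREAM, MuvB and NF-Y had a median of -0.08, with 0 of 15 called. Of all genes tested 12.1% were called in either direction. In uninfected replicate 3, 10 of 39 G1/S genes were called higher, against 4.58% of all genes tested, with Mcm5 at +0.73 and Cdt1 at +0.71, and the median was +0.31.

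Other measures moved with replicate 3, and their part in these results was not tested. Cdkn1a had log2 signals in p53ER replicate 3 of 11.23 with 4-OHT, 9.37 with vehicle and 8.63 at 0 h, against 9.77 and 10.17, 7.34 and 7.89, and 7.72 and 6.93 in replicates 1 and 2. Of 5 p53 targets used as controls, 3 were called higher there, Cdkn1a (+1.44), Mdm2 (+1.06) and Phlda3 (+0.64), and the other 2 were positive. Of all genes tested 5.72% were called higher in p53ER replicate 3. Cdkn1a and Mdm2 were also highest on replicate 3 in each condition of uninfected cells. Cdkn1a had 7.80 with 4-OHT, 7.995 with vehicle and 7.10 at 0 h, against 7.09 and 7.19, 7.71 and 7.52, and 6.72 and 6.64. Mdm2 had 7.62, 7.95 and 7.18, against 7.06 and 7.44, 7.03 and 7.94, and 6.86 and 6.84. The other controls, Ccng1, Phlda3 and Pmaip1, were not highest there in every condition. The ratio of 3′ to 5′ control probe sets of Gapdh, a sign of RNA quality, was 0.860 to 0.950 on the 6 arrays of replicate 3, of both cell types, against 0.782 to 0.841 on the other 12. The same ratio for actin did not run higher on replicate 3, at 1.00 to 1.13 (median 1.09), against 1.05 to 1.22 (median 1.15). The trimmed mean signal of the 6 arrays before scaling was 47.5 to 73.5, against 58.1 to 148. Of 8 markers of mesenchymal cells, 4 were called lower in p53ER replicate 3, such as Col3a1 (-1.40) and Pdgfrb (-1.21), and 3 in uninfected replicate 3. The shares of all genes tested that were called lower were 6.42% and 5.77%. The median of the 8 per array was -0.50 to -0.23 on the 6 arrays of replicate 3, of both cell types, against -0.11 to +0.51 on the other 12, without overlap. Of the other marker lists, 3 of 6 epithelial, 2 of 5 blood and 1 of 4 endothelial genes were bright enough to be tested, and Epcam was called lower in uninfected replicate 3 (-1.09).

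The comparison that the study was designed for, 4-OHT against vehicle in p53ER cells, moved none of the 50 genes past the threshold. With limma 0 of 50 were called, and 2 of 50 had an unadjusted p under 0.05, against 0.0183% of all genes tested (2 genes, Mdm2 and Pmaip1, both higher) and 3.22%. The median log2 change was +0.02, against -0.01 over all genes, and 26 of 50 were positive, against 48.1% of all genes. Within replicates 1, 2 and 3 the median was -0.06, -0.05 and +0.07. In simulated data of this comparison 55.8% of genes changed by 1 log2 unit were recovered and 12% of those changed by 0.5, so smaller changes were mostly not detectable with 3 arrays a group. Those data took each gene's spread from a fit with the replicate 3 terms and held no replicate 3 shift. The test of 4-OHT had no such terms, so these shares are too high for genes that shifted with replicate 3. Each simulated set also held 50 changed genes of each size, which makes the Benjamini-Hochberg threshold easier to pass. In the measured data only 2 genes passed, so the shares may be too high for other genes too. Cdkn1a did not pass, with log2 signals of 9.77, 10.17 and 11.23 with 4-OHT, against 7.34, 7.89 and 9.37 with vehicle.

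Ckap2 came nearest to the threshold. It had log2 signals of 9.39, 9.13 and 10.03 with 4-OHT in replicates 1, 2 and 3, against 7.76, 8.40 and 7.99 with vehicle and 8.29, 8.33 and 7.53 at 0 h. Uninfected cells had 8.37, 8.17 and 7.73 with 4-OHT, against 8.38, 7.97 and 7.66 with vehicle and 8.10, 7.72 and 7.91 at 0 h. All 3 p53ER arrays with 4-OHT lay above the 3 with vehicle, which no other of the 50 did (1 of 50, against 3.39% of all genes tested), and 0 of 50 lay below, against 3.98%. The means were 9.52 ± 0.46 with 4-OHT and 8.05 ± 0.32 with vehicle (SD, n = 3 each), a log2 change of +1.47 (SE 0.28) with an adjusted p of 0.0999 from limma. The change was +1.63, +0.73 and +2.04 within the 3 replicate numbers. In uninfected cells it was +0.09, and its change in p53ER cells exceeded that by 1.38 on the log2 scale (SE 0.39, unadjusted p = 0.00269, not past the threshold after adjustment).

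Gtse1, whose product binds microtubules and p53, followed at +0.81 (SE 0.29, unadjusted p = 0.0119, adjusted p = 0.998 from limma). It had 7.85, 7.65 and 8.70 with 4-OHT, against 7.76, 7.38 and 6.61 with vehicle and 7.25, 7.01 and 7.0 at 0 h. The groups with 4-OHT and vehicle overlapped, and most of the change came from replicate 3, the values within the numbers being +0.09, +0.27 and +2.08. Without replicate 3 of every group it was +0.18. In uninfected cells Gtse1 had 6.95, 7.08 and 7.14 with 4-OHT, against 7.17, 7.27 and 6.77 with vehicle and 6.75, 7.39 and 7.18 at 0 h, a change of -0.01 against vehicle.

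Other large values rested on 1 vehicle array. Mki67 had 9.26, 9.23 and 8.17 with 4-OHT, against 5.26, 9.62 and 8.02 with vehicle, and its change of +1.25 (SE 0.96) was +4.00, -0.39 and +0.15 within the numbers. Cenpe at +1.20 was +3.08, +0.13 and +0.39, and Smc4 at +1.13 was +3.25, +0.34 and -0.21. These genes are the ones that were low on p53ER vehicle replicate 1. At the lower end stood Cdc25b at -0.42 (SE 0.37), Espl1 at -0.36 (SE 0.20) and Bub3 at -0.34 (SE 0.22). The core genes of mitotic entry were near 0, with Cdk1 at -0.13, Ccna2 at -0.24, Ccnb2 at +0.17, Plk1 at -0.04, Cdc20 at -0.14 and Foxm1 at +0.14. By role the medians ran from -0.16 for cyclins and CDK1 and for cytokinesis to +0.57 at the kinetochore and +1.01 for chromosome structure. These high medians rested on the same vehicle array, being +1.10, +0.01 and +0.28 at the kinetochore and +3.25, -0.05 and -0.02 for chromosome structure within replicates 1, 2 and 3. Genes higher in all 3 replicate numbers were Bub1, Cenpe, Ckap2, Ect2, Foxm1, Gtse1, Kif11 and Spc25, and those lower in all 3 were Aurka, Ccna2, Cdc25b and Espl1. The 58 other mitotic genes had a median of -0.05 and the 39 G1/S genes one of -0.21, with 33 of 39 negative and 0 called.

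**Figure D5:**
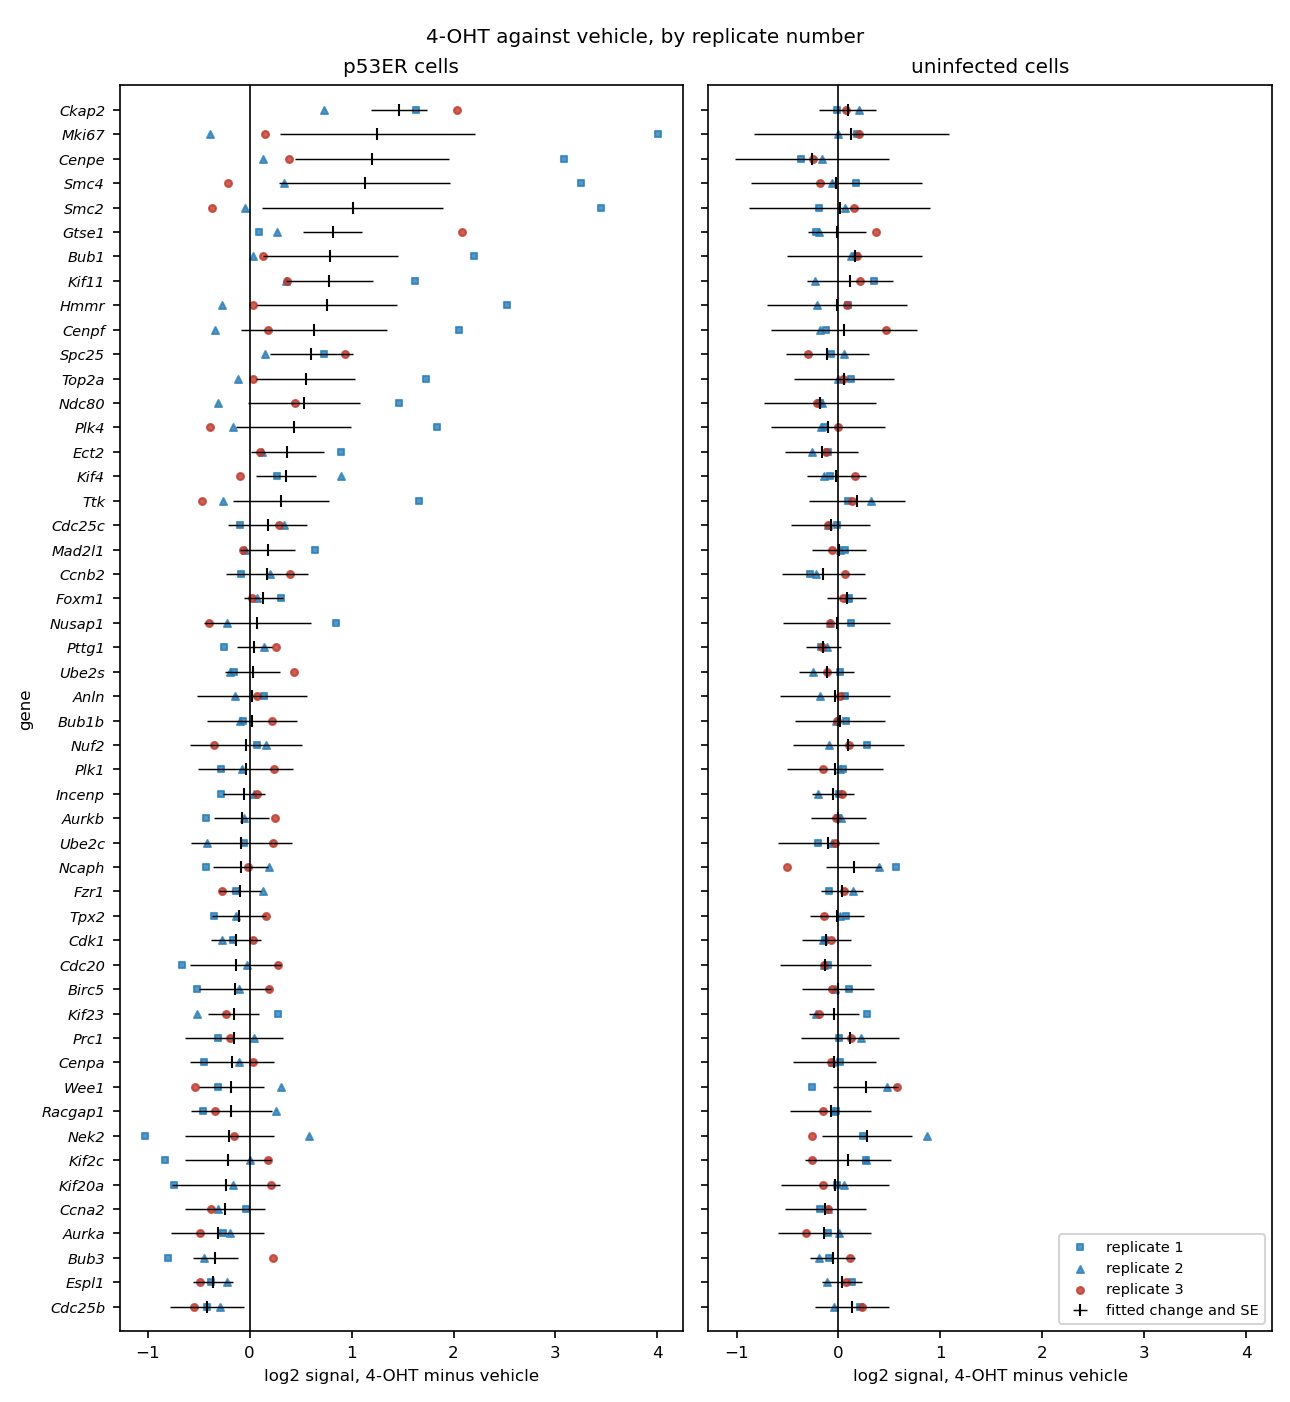
Log2 signal with 4-OHT minus that with vehicle (x axis) for each of the 50 genes (y axis) in p53ER cells (left) and uninfected cells (right); symbols are the differences within replicate numbers 1, 2 and 3, ticks the fitted changes and bars their standard errors. Ckap2 is at the top on the left at +1.47, the values of Mki67, Cenpe, Smc4 and Smc2 rest on replicate 1, and that of Gtse1 mostly on replicate 3.

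Against 0 h, p53ER cells with 4-OHT gave the same picture. With limma 0 of 50 were called, against 0.0183% of all genes tested, and 2 of 50 had an unadjusted p under 0.05, against 4.14%. Those 2, Ckap2 (+1.47, SE 0.28, adjusted p = 0.119) and Gtse1 (+0.98, SE 0.29, adjusted p = 0.758), were also the 2 of 50 whose arrays with 4-OHT lay above all at 0 h, against 4.56%, while 0 of 50 lay below, against 6.29%. The log2 change was positive for 26 of 50, against 44.9%. With the replicate number as a block, Ckap2 passed (adjusted p = 0.0472), as 1 of 50 against 0.174% of all genes tested. Gtse1 was higher in all 3 numbers, by 0.60, 0.65 and 1.69. This comparison shares its 4-OHT arrays with the one against vehicle.

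In uninfected cells, 4-OHT against vehicle called 0 of 50 with limma, against 0 of all genes tested, and 0 of 50 had an unadjusted p under 0.05, against 0.77%. The median was -0.02. Pttg1 was the 1 of 50 whose arrays did not overlap (lower, -0.15), against 1.91%, and 0 of 50 lay above, against 2.38%. The difference of the 4-OHT effect between the cell types also passed for 0 of 50 with limma and for 0 of all genes, with Ckap2 alone under an unadjusted p of 0.05, against 1.56%, and a median of +0.04.

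The vehicle groups were also set against 0 h. No untreated cells were sampled at 4 h, so time in culture and the vehicle itself cannot be told apart. In uninfected cells 0 of 50 were called with limma for vehicle against 0 h, as 0 of all genes were, and 2 of 50 had an unadjusted p under 0.05 (Kif23 at +0.56 and Ect2 at +0.80), against 5.64%. The median was +0.22 and 40 of 50 were positive, against 42.3% of all genes tested. The 5 of 50 with every vehicle array above every array at 0 h (Mad2l1, Kif23, Top2a, Plk4 and Ect2) compare with 4.17%, and Foxm1 was the 1 of 50 with all below (-0.27), against 7.29%. For 4-OHT against the same 3 arrays at 0 h, of which replicate 2 stood apart, the count was 0 of 50 with limma and 0 of all genes, 0 of 50 had an unadjusted p under 0.05, against 4.96%, and the median was +0.20. There 7 of 50 lay above without overlap (Mad2l1, Kif23, Top2a, Plk4, Ect2, Bub1 and Kif11), against 4.65%, and 0 of 50 lay below, against 6.71%. In p53ER cells vehicle against 0 h called 0 of 50 with limma and 0 of all genes, with 0 of 50 under an unadjusted p of 0.05, against 3.05%. No gene of the 50 was without overlap, against 2.4% of all genes above and 3.62% below. Its median was -0.04 with 22 of 50 positive, against 44.6%. Within replicates 1, 2 and 3 the median was +0.02, +0.08 and +0.03. It was -0.49 without the 3 arrays that stood apart, but vehicle replicates 2 and 3 were then set against 0 h replicates 1 and 2.

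Set against uninfected cells in the same condition, p53ER cells had lower medians for the 50 genes, at -0.42 with 4-OHT, -0.41 with vehicle and -0.15 at 0 h. Within replicates 1, 2 and 3 these were -0.13, -0.23 and -0.92 with 4-OHT, -0.12, -0.13 and -0.90 with vehicle, and +0.27, -0.23 and -0.79 at 0 h, so that replicate 3 had the lowest value each time. Without replicate 3 of every group they were -0.14, -0.08 and +0.05. With limma 0 of 50 were called in each condition, against 0.0733% of all genes tested with 4-OHT (8 genes, all higher), 0.00916% with vehicle and 0 at 0 h. Under an unadjusted p of 0.05 were 3 of 50 with 4-OHT, against 3.84%, 3 of 50 with vehicle, against 2.37%, and 1 of 50 at 0 h, against 2.86%.

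Foxm1 was lower without overlap in all 3 of these comparisons. It had 8.31, 8.13 and 7.78 in p53ER cells with 4-OHT, against 8.57, 8.43 and 8.43 in uninfected cells. With vehicle it had 8.0, 8.05 and 7.75 in p53ER cells, against 8.47, 8.34 and 8.39 in uninfected cells, and at 0 h 8.43, 8.29 and 7.68, against 8.48, 8.95 and 8.56. The changes of -0.40, -0.46 and -0.53 (SE 0.20 each) did not pass. With 4-OHT, 12 of 50 lay below without overlap, against 5.73% of all genes tested, among them Cdk1 (-0.43), Birc5 (-0.52), Top2a (-0.50), Aurkb (-0.37) and Espl1 (-0.55). With vehicle 5 of 50 did, against 2.71% (Smc4, Ect2, Mad2l1, Foxm1 and Tpx2), and at 0 h Foxm1 and Espl1, 2 of 50, against 3.48%. Above without overlap were 3 of 50 with 4-OHT, against 5.49%, namely Ckap2 (+1.42, adjusted p = 0.0961), Gtse1 (+1.01, adjusted p = 0.617) and Pttg1 (+0.27). Ckap2 passed there without the 3 arrays that stood apart (adjusted p = 0.0398).

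The motifs described above were also counted by what the genes did in p53ER replicate 3. A CHR element was in 17 of 23, or 73.9%, of the genes called lower with a promoter, and in 13 of 18, or 72.2%, of those not called, most of which also had negative changes. A CCAAT box was in 15 of 23, or 65.2%, and in 15 of 18, or 83.3%. The E2F type of motif was in 4 of 23, or 17.4%, and in 0 of 18. These shares were not tested.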

How the data were processed

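The authors deposited linear signal intensities made with MAS5, per the submitters' processing notes, whose version is not given in the sources used here; the table holds no detection calls. It has 45101 probe sets and 18 arrays, each assigned to its group by its label. The 2% trimmed mean ran from 47.5 to 148 between arrays (3.12-fold), so arrays were scaled to a common value of 82.7, and log2(signal + 4.13) was used, the offset being 5% of that value. A log2 change on this scale understates changes of dim genes.

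In the array annotation, 34958 probe sets had 1 gene, 932 had several and 9211 had none listed. RefSeq genes were found by Entrez ID for 34754 of the 34958. Genes numbered 18194, each read by its brightest probe set on average, and the upper 60% of them, 10916 genes (dimmest mean 4.74), were tested.

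Group means were fitted over all 18 arrays with limma (trended, robust prior; 12 residual degrees of freedom), and 1 replicate 3 term per cell type was added for the comparisons by number (10). P-values were two-sided and Benjamini-Hochberg adjusted over all genes tested, with a threshold of 0.05. Exact permutation tests could not go below 0.1 for 3 arrays against 3, or 0.0238 for 3 against 6. The latter limit, like the p-values by number, takes arrays of the same number as separate units, which the labels do not establish. In data simulated for the comparison of p53ER replicate 3, 17.6%, 66.8% and 85.6% of genes changed by 0.5, 1 and 1.5 were recovered.

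The members, gene lists, comparisons and alternatives were chosen with earlier results of these data known. All 50 members could be named; full statistics were given for up to 8 called members per comparison (otherwise the 3 highest and 3 lowest) and for 15 members fixed for their roles, and up to 3 called genes of other lists.

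Deviations of arrays with the same number correlated above 0.1 in every pair for p53ER 4-OHT against vehicle (r 0.21 to 0.45), p53ER 4-OHT against 0 h (0.27 to 0.47), uninfected 4-OHT against vehicle (0.31 to 0.62) and 4-OHT p53ER against uninfected (0.17 to 0.47), and not in the others (lowest -0.21). Since no label explains the numbers, the block served as an alternative. Others were quantile normalization, no offset or a larger one (16.5), no filter or a stricter one (upper 40%), all probe sets, array weights, a plain variance prior, only the groups compared, and leaving out each array, the 3 arrays that stood apart, or replicate 3. Promoters came from RefSeq (GRCm38.p6). The software was Python 3.11.15 with pandas 2.3.3 and matplotlib 3.10.9, and R 4.3.3 with data.table (1.17.8) and limma 3.58.1.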

Additional observations from a re-analysis of the deposited data

Results flagged for a closer look

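The change of replicate 3 against replicates 1 and 2 differed between p53ER and uninfected cells for 4 of the 50 genes, by limma's test of the difference itself. All 4 were lower, while 0.311% of all genes tested were called, 0.128% lower. The difference (p53ER minus uninfected, log2) was -1.36 for Ccnb2 (cyclin B2), -1.29 for Ccna2 (cyclin A2), -1.26 for Racgap1 (of centralspindlin) and -1.19 for Ube2c (an enzyme of the anaphase-promoting complex). Racgap1 had 7.44, 7.79 and 7.56 in p53ER replicate 3, against 8.67 to 9.27 in p53ER replicates 1 and 2. In uninfected cells it had 8.79 to 8.95 in replicate 3, against 8.51 to 9.05 in replicates 1 and 2. Ube2c had 8.32, 8.09 and 8.63 in p53ER replicate 3, against 9.67 to 10.21, and in uninfected cells 9.57 to 9.70, against 9.61 to 10.12. None of the 4 passed without p53ER 4-OHT replicate 3 or without uninfected 0 h replicate 3. Ube2c also missed the threshold with the plain variance prior and without p53ER vehicle, uninfected 4-OHT or uninfected vehicle replicate 3. Ccnb2 also missed it without p53ER vehicle or uninfected 4-OHT replicate 3, and Racgap1 without uninfected vehicle replicate 3.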

How the results depend on the processing

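Counts of genes called refer to the 50 genes. With the replicate number as a block, and with array weights, 1 (Ckap2) passed in p53ER 4-OHT against 0 h. In 4-OHT p53ER against uninfected, 1 (Ckap2) passed with array weights, without the 3 arrays that stood apart, and without them with the block. The block changed no other count of these genes. Uninfected replicate 3 gave 1 call in the main fit, where 10.4% of all genes tested were called. It gave 2 calls with quantile normalization, the larger offset and the stricter filter, 11 with array weights (25.4% of all genes) and 12 without the 3 arrays (21.8% of all genes). The difference of the replicate 3 effect gave 4 in the main fit (0.311% of all genes). It gave 7 with quantile normalization, 23 with array weights (3.50% of all genes) and 22 without the 3 arrays (1.4% of all genes). The median of p53ER replicate 3 was -0.99 with array weights, and that of p53ER vehicle against 0 h -0.49 without the 3 arrays. In p53ER 4-OHT against vehicle, the sign turned for Cdc25b without 4-OHT replicate 3 (+0.0187; range over arrays left out -0.7894 to +0.0187) and for Mki67 without the 3 arrays and with the block (-0.0175). For the median of -0.49, vehicle replicates 2 and 3 were set against 0 h replicates 1 and 2. For the turned sign of Cdc25b, 4-OHT replicates 1 and 2 were set against vehicle replicates 1, 2 and 3. Within replicates 1, 2 and 3 Cdc25b was at -0.42, -0.29 and -0.55. The cause of these changes was not tested.

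Leaving out 1 array in turn gave 22 to 34 calls for p53ER replicate 3, 0 to 5 for uninfected replicate 3, 0 to 11 for their difference, 0 to 1 for 4-OHT p53ER against uninfected and 0 elsewhere. With all arrays the counts by replicate number were 29, 1 and 4, against 12.1%, 10.4% and 0.311% of all genes tested. The medians ranged from -1.06 to -0.77 for p53ER replicate 3, -0.16 to -0.0417 for uninfected replicate 3 and -0.94 to -0.69 for their difference. They ranged from -0.31 to +0.41 for p53ER 4-OHT against vehicle, -0.33 to +0.38 for p53ER 4-OHT against 0 h, -0.33 to +0.27 for p53ER vehicle against 0 h, -0.09 to +0.05 for uninfected 4-OHT against vehicle, +0.11 to +0.30 for uninfected 4-OHT against 0 h, +0.14 to +0.27 for uninfected vehicle against 0 h and -0.24 to +0.37 for the difference of the 4-OHT effect. For p53ER against uninfected they ranged from -0.56 to -0.06 with 4-OHT, -0.58 to -0.04 with vehicle and -0.38 to +0.10 at 0 h. Ckap2 in p53ER 4-OHT against vehicle kept a change of +1.21 to +1.66, with an adjusted p of 0.078 to 0.939. Dim genes are limited by their signal over background, since the deposited values hold no detection calls.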
